A study of Mus musculus with 12 samples.

Results

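The 10 genes described here carry glucose into the cell and break it down to lactate. They are the glucose transporters Slc2a1 and Slc2a3, the hexokinases Hk1 and Hk2, the phosphofructokinase Pfkp, the aldolase Aldoa, the phosphoglycerate kinase Pgk1, the enolase Eno1, the pyruvate kinase Pkm and the lactate dehydrogenase Ldha. They were chosen by name for their place in the pathway, with earlier results of these data known. Counts and medians over them are therefore descriptions and no test of the set. They are 10 of the 53801 genes in the count tables, and all 10 were among the 18365 genes tested. The assay was bulk sequencing of poly(A) RNA from wild type C57BL/6 mouse embryos. The tissue was the maxillary prominence, the facial swelling that forms the palatal shelves and the upper jaw. Embryos of 4 ages were used, E10.5 (embryonic day 10.5), E11.5, E12.5 and E14.5. Each age has 3 libraries, and no embryo was given an agent or carried an engineered allele according to the labels. RNA came from 7 littermates, but whether per library or per stage is not said, and libraries of 1 stage may share a litter. The p-values below set differences between stage means against the spread between these libraries, which may not cover the spread between litters.

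Glucose enters cells through facilitative transporters and is trapped by hexokinase as glucose 6-phosphate. Phosphofructokinase commits it to glycolysis, aldolase splits the product, and the lower steps, from phosphoglycerate kinase to pyruvate kinase, return ATP. Lactate dehydrogenase A turns pyruvate into lactate and restores the NAD+ that the pathway consumes. Early embryos depend on glycolysis to a large extent, and the hypoxia-inducible factor HIF1 and Myc proteins are known activators of many of these genes.

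Libraries held between 28294837 and 33941430 counts in genes. Levels are given as CPM, the usual count per library size, with library sizes scaled by TMM (trimmed mean of M-values), as mean ± SD with n = 3. A gene's change is given as a log2 fold change, and its p-value comes from edgeR's quasi-likelihood test. P-values were adjusted by Benjamini-Hochberg over all genes tested, with a threshold of 0.05. The standard error (SE) was derived from that test, as the absolute log2 fold change divided by the square root of the F statistic. A change was said to have passed where the adjusted p was below 0.05. As a check of the labelled tissue, 4 genes of facial mesenchyme were present in every library: Prrx1 at 399 to 844 CPM, Twist1 at 96.2 to 424, Msx1 at 66.5 to 352 and Dlx2 at 16.6 to 84.1. In bulk tissue, fewer cells that express a gene and less RNA per cell cannot be told apart. Alignments that fell outside any annotated gene made up 1.92% to 4.88% in E10.5 libraries and 2.16% to 2.42% in E11.5 libraries. They made up 5.03% to 5.43% in E12.5 libraries and 5.78% to 6.21% in E14.5 libraries, so this share moved with stage. Scaling by library totals alone, without TMM, raised the median change over all genes by 0.22 on the log2 scale for E12.5 against E11.5 and by 0.32 for E14.5 against E10.5, and members whose call or sign it changed are named below. Collection of E14.5 is described separately in the labels, and stage and handling cannot be told apart.

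Most of the 10 genes were highest at E10.5 and fell over the next 2 days. From E10.5 to E11.5, 8 of the 10 fell and 1, Hk1, rose, where 12.9% of all genes tested were called lower and 12.2% higher. From E11.5 to E12.5, 6 fell (Slc2a3, Hk2, Pgk1, Eno1, Pkm and Ldha) and Pfkp rose, against 22.2% of all genes lower and 27.1% higher. From E12.5 to E14.5, 4 rose (Slc2a3, Pfkp, Aldoa and Ldha, the last close to the threshold) and Pkm fell, against 23.0% of all genes higher and 24.0% lower. Over the whole course, E14.5 against E10.5, 7 fell and Hk1 and Pfkp rose, against 33.8% of all genes lower and 36.6% higher. Slc2a1 did not pass.

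The median log2 fold change of the members was -0.48, -0.76 and 0.14 in the 3 consecutive steps and -0.93 over the whole course, beside -0.04, 0.06, -0.01 and 0.06 for all genes tested. The 10 genes together took up 0.790% ± 0.057 of the counts in genes at E10.5, 0.490% ± 0.034 at E11.5, 0.332% ± 0.033 at E12.5 and 0.363% ± 0.014 at E14.5. All 10 passed a joint test over the 4 stages, as did 81.6% of all genes. Slc2a1 did not pass that test when replicate 1 of E10.5, replicate 3 of E10.5, replicate 1 of E11.5 or replicate 2 of E11.5 was left out, which left 9. Neighbouring steps share the libraries of the stage between them, so their values are set side by side and not compared.

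**Figure D1:**
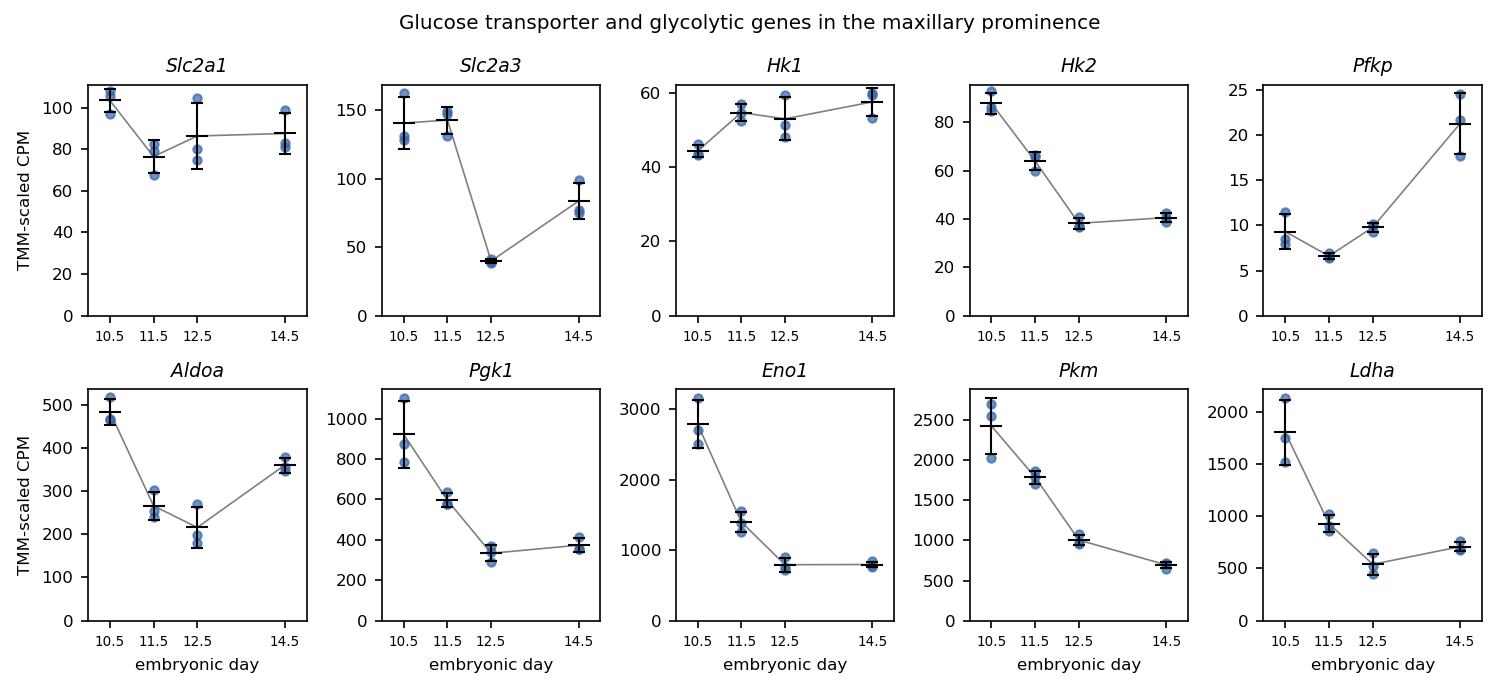
TMM-scaled CPM (vertical axes, starting at 0 and differing between genes) of the 10 genes by embryonic day. Blue points are single libraries, black marks the mean ± SD of 3 libraries, and grey lines join the means: Eno1, Pkm, Ldha, Pgk1 and Hk2 lay lower at E11.5 and lower again at E12.5, Slc2a3 was lowest at E12.5, and Pfkp was highest at E14.5.

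The fall at E12.5 coincided with the step in the share of alignments outside genes. With that share as a covariate, 2 members, Slc2a3 and Hk2, passed as lower from E11.5 to E12.5 and none as higher, and calls over all genes dropped to 407 higher and 286 lower. Pgk1 then had a log2 fold change of -0.43, adjusted p = 0.267, Eno1 -0.57, adjusted p = 0.161, Pkm -0.46, adjusted p = 0.163 and Ldha -0.40, adjusted p = 0.394. Pfkp had 0.04, adjusted p = 0.943. No library of E11.5 had a share within the range of E12.5, so the share and the stage cannot be told apart in that step. All E14.5 libraries had shares above all E10.5 and E12.5 libraries. The same limit therefore holds for covariate results of the last step and the whole course. Markers of dividing cells also fell from E11.5 to E12.5, 12 of 12, where 22.2% of all genes did. Their summed level was 4804 to 5317 CPM at E11.5 and 2605 to 3250 CPM at E12.5. From E10.5 to E11.5, 4 of the 12 fell, where 12.9% of all genes did, and the summed level at E10.5 was 4780 to 5777 CPM. The part of these markers in the members' falls was not tested.

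The transporters took different courses. Slc2a1 encodes GLUT1, the widespread basal transporter, and lies at chr4:119108711-119137983 on the plus strand (mm10, as are all gene positions below). It stood at 105, 97.1 and 108 CPM at E10.5, 79.1, 67.8 and 82.5 at E11.5, 74.8, 104 and 79.9 at E12.5 and 80.9, 98.9 and 82.9 at E14.5. All E11.5 libraries lay below all E10.5 libraries, and at every later step the stages overlapped. The early fall was to 0.739 times (log2 fold change -0.44, SE 0.12, edgeR adjusted p = 0.0202). It no longer passed without replicate 1 of E10.5 (adjusted p = 0.0575), replicate 3 of E10.5 (0.0566) or replicate 2 of E11.5 (0.0992), or with the share outside genes as a covariate (0.0535).

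Over the whole course Slc2a1 changed by -0.24 on the log2 scale (SE 0.12, edgeR adjusted p = 0.0959). That value passed without replicate 1 of E12.5 (adjusted p = 0.0425), replicate 2 of E12.5 (0.0355) or replicate 2 of E14.5 (0.0376), with every gene of at least 1 count kept (0.0254) and in a fit of both stages alone (0.0477), and it turned to 0.08 with library totals alone. Its direction from E10.5 to E14.5 therefore depended on the scaling. Replicate 2 of E12.5 stood apart with 104 CPM, and that library was also the highest of its stage for Aldoa, Pgk1, Eno1, Pkm and Ldha.

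Slc2a3 encodes GLUT3, a transporter of high affinity best known from neurons and the placenta, and lies at chr6:122727809-122801640 on the minus strand. Its level was 128, 131 and 162 CPM at E10.5 and 149.6, 131 and 147 CPM at E11.5, which overlap. At E12.5 it was 38.8, 39.3 and 41.6 CPM and at E14.5 75.1, 98.9 and 76.9 CPM, so that every E12.5 library lay below every library of the other stages. The fall from E11.5 to E12.5, to 0.28 times, was the largest change of any member in any step (log2 fold change -1.84, SE 0.12, edgeR adjusted p = 4.20e-07). The later rise was 2.10-fold (log2 fold change 1.07, SE 0.12, edgeR adjusted p = 1.20e-05) and left the gene at 0.595 times its E10.5 level (log2 fold change -0.75, SE 0.12, edgeR adjusted p = 5.63e-05). These 3 calls held with each alternative setting and each library left out, and the whole-course value moved most with library totals alone, to -0.43.

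Neurons and blood vessels also use Slc2a3 and Slc2a1. The summed level of 10 neuronal markers was 379 to 763, 172 to 273, 142 to 368 and 139 to 247 CPM in order of stage. Of these 10 markers, 6 fell and none rose from E10.5 to E11.5, against 12.9% and 12.2% of all genes. From E11.5 to E12.5, 5 rose and none fell (all genes, 27.1% and 22.2%). From E12.5 to E14.5, 4 fell and none rose (all genes, 24.0% and 23.0%). The 8 endothelial markers summed to 268 to 364, 170.0 to 209, 282 to 417 and 439 to 502 CPM in the same order. Their part in the transporter levels was not tested.

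The hexokinases moved in opposite directions over the whole course. Hk1, the housekeeping hexokinase bound to the outer mitochondrial membrane (chr10:62268855-62379908, minus strand), stood at 46.1, 43.4 and 43.3 CPM at E10.5 and 56.9, 54.6 and 52.4 at E11.5. It stood at 48.1, 51.3 and 59.3 CPM at E12.5 and 59.5, 53.2 and 59.8 at E14.5. All later libraries exceeded all E10.5 libraries, and the 3 later stages overlapped. Its rise over the whole course was 1.30-fold (log2 fold change 0.38, SE 0.09, edgeR adjusted p = 0.00149), and with the share outside genes as a covariate it was 0.38, adjusted p = 0.078.

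The first step of Hk1 was small (log2 fold change 0.30, SE 0.09, edgeR adjusted p = 0.0208). It did not pass without replicate 2 of E10.5 (adjusted p = 0.0557), replicate 3 of E10.5 (0.0536), replicate 1 of E11.5 (0.082) or replicate 2 of E11.5 (0.0592). From E11.5 to E12.5 its value was -0.04 and turned to 0.18 with library totals alone, neither passing. From E12.5 to E14.5 it was 0.12 (adjusted p = 0.277) and passed only without replicate 3 of E12.5 (0.23, adjusted p = 0.0304).

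Hk2, the inducible hexokinase known from muscle, embryonic tissue and tumours (chr6:82725025-82774454, minus strand), fell in both early steps. It was measured at 92.8, 84.5 and 86.3 CPM at E10.5, 65.6, 59.9 and 66.5 at E11.5, 37.0, 36.9 and 40.8 at E12.5 and 42.6, 40.6 and 38.7 at E14.5. The first 3 stages did not overlap, and E12.5 and E14.5 did. The falls were to 0.728 times (log2 fold change -0.46, SE 0.08, edgeR adjusted p = 0.000664) and to 0.598 times (log2 fold change -0.74, SE 0.08, edgeR adjusted p = 1.40e-05). At E14.5 the gene stood at 0.462 times its E10.5 level (log2 fold change -1.11, SE 0.08, edgeR adjusted p = 3.53e-08). The calls of Hk2 in the early steps and over the whole course passed under every alternative run, the covariate included.

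Phosphofructokinase makes fructose 1,6-bisphosphate and is the main point of control. Pfkp, its platelet-type subunit (chr13:6579768-6648777, minus strand), had the lowest level of the members per kilobase, on either length and at every stage, and was itself highest at E14.5. Its libraries gave 7.93, 8.50 and 11.5 CPM at E10.5, 6.41, 6.45 and 6.97 at E11.5, 9.26, 9.96 and 10.2 at E12.5 and 21.6, 17.7 and 24.5 at E14.5. All E14.5 libraries exceeded all others, with a 2.28-fold rise over the whole course (log2 fold change 1.19, SE 0.15, edgeR adjusted p = 9.42e-06), or 0.71, adjusted p = 0.026, with the share outside genes as a covariate. The step from E12.5 to E14.5 was 2.17-fold (log2 fold change 1.12, SE 0.15, edgeR adjusted p = 5.83e-05), and that from E11.5 to E12.5 was 1.48-fold (log2 fold change 0.57, SE 0.15, edgeR adjusted p = 0.00876).

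The dip of Pfkp at E11.5 (log2 fold change -0.50, SE 0.16, edgeR adjusted p = 0.0326) did not pass without replicate 3 of E10.5, at 11.5 CPM (-0.31, adjusted p = 0.145). It also did not pass without replicate 1 of E11.5 (adjusted p = 0.0983), replicate 2 of E11.5 (0.0973), replicate 3 of E11.5 (0.0594) or replicate 1 of E14.5 (0.0595), nor with library totals alone (0.0775), in limma-voom (0.0734), in a fit of both stages alone (0.0657) or with the covariate (0.118). Pfkp overlaps Pitrm1, a gene on the opposite strand that reached 212 CPM. The library kit does not mark strand, so reads from the shared stretch cannot be assigned to 1 of the pair and the level of Pfkp is uncertain.

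Aldoa, the main aldolase of muscle and of most embryonic tissue (chr7:126795234-126800751, minus strand), fell and then recovered in part. The libraries stood at 466, 519 and 469 CPM at E10.5, 255, 241 and 303 at E11.5, 180.4, 270.1 and 198 at E12.5 and 355, 379.6 and 347 at E14.5. E10.5 lay above all other stages, E11.5 and E12.5 overlapped, and E14.5 lay between. The first step was to 0.55 times (log2 fold change -0.86, SE 0.14, edgeR adjusted p = 0.000472) and the last was a 1.67-fold rise (log2 fold change 0.74, SE 0.14, edgeR adjusted p = 0.000642). Both held under every alternative.

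The middle step of Aldoa did not pass (log2 fold change -0.30, SE 0.13, edgeR adjusted p = 0.0786), but did without replicate 2 of E12.5 (-0.50, adjusted p = 0.00379), the library at 270.1 CPM, in DESeq2 (-0.33, adjusted p = 0.0346) and with every gene of at least 1 count kept (adjusted p = 0.0157). Over the whole course Aldoa fell to 0.744 times (log2 fold change -0.43, SE 0.13, edgeR adjusted p = 0.0119), a call lost with library totals alone (-0.10, adjusted p = 0.5) and with the covariate (-0.40, adjusted p = 0.221). A second identifier of the same name, just upstream, held 1.17 to 2.54 CPM and was not added. From E12.5 to E14.5, 23.0% of all genes rose and 24.0% fell. In that step 12 of 12 skeletal muscle markers rose, with a summed level of 189 to 422 CPM at E12.5 and 2055 to 2574 CPM at E14.5. In the same step 7 of 7 osteoblast markers tested rose, with a summed level of 409 to 700.2 CPM at E12.5 and 6970 to 8817 CPM at E14.5. Of 8 cartilage markers 5 rose and 1 fell, at a summed level of 481 to 711 and 443 to 897 CPM. Of 8 endothelial markers 5 rose and 1 fell, at a summed level of 282 to 417 and 439 to 502 CPM. The part of these markers in the rises of Slc2a3, Pfkp, Aldoa and Ldha was not tested.

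Pgk1 and Eno1 act in the ATP-yielding lower steps and followed nearly the same course. Pgk1, the X-linked phosphoglycerate kinase that makes the first ATP of these steps (chrX:106187100-106203699, plus strand), stood at 874, 1104 and 786 CPM at E10.5 and 575, 575 and 637 at E11.5. It stood at 341, 369 and 289 CPM at E12.5 and 353, 414 and 352 at E14.5. The first 3 stages did not overlap and the last 2 did. The early falls were to 0.647 times (log2 fold change -0.63, SE 0.13, edgeR adjusted p = 0.00346) and 0.559 times (log2 fold change -0.84, SE 0.13, edgeR adjusted p = 0.000276), and the gene ended at 0.405 times its E10.5 level (log2 fold change -1.30, SE 0.13, edgeR adjusted p = 1.26e-06). From E12.5 to E14.5 it changed by 0.16 (adjusted p = 0.328).

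Eno1, the enolase of most non-muscle, non-neuronal cells (chr4:150236721-150248879, plus strand), stood at 2713, 3162 and 2506 CPM at E10.5 and 1389, 1261 and 1555 CPM at E11.5. At E12.5 it was 759, 909 and 713 CPM and at E14.5 788, 840.2 and 762 CPM. No E11.5 library reached the E10.5 range, no E12.5 library reached the E11.5 range, and E12.5 and E14.5 overlapped. The falls were to 0.502 times (log2 fold change -0.99, SE 0.13, edgeR adjusted p = 8.34e-05) and 0.566 times (log2 fold change -0.82, SE 0.12, edgeR adjusted p = 0.000225). Over the whole course Eno1 dropped to 0.285 times (log2 fold change -1.81, SE 0.13, edgeR adjusted p = 4.53e-08), and in the last step it changed by 0.01 (SE 0.12, adjusted p = 0.977), a value whose sign turned in several alternatives. Copies and pseudogenes of the members took few counts: the highest, a near-identical copy of Eno1, reached 9.48 CPM in 1 library. Alignments to more than 1 place were not counted for any gene. Low counts of copies therefore cannot show how many reads a member lost to shared sequence, and that loss was not tested.

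Pkm, the pyruvate kinase of muscle and of dividing cells (chr9:59656368-59679375, plus strand), was the only member that passed as lower in all 3 steps. Its libraries stood at 2546, 2703 and 2032 CPM at E10.5, 1788, 1708 and 1868 at E11.5, 972, 1082 and 960.1 at E12.5 and 711, 724 and 649 at E14.5. No stage overlapped its neighbour. The first step was -0.44 (SE 0.11, edgeR adjusted p = 0.0122), the second -0.83 (SE 0.11, adjusted p = 0.000111) and the third -0.53 (SE 0.11, adjusted p = 0.00191). At E14.5 the gene held 0.286 times its E10.5 level (log2 fold change -1.80, SE 0.12, edgeR adjusted p = 2.15e-08). The first of these calls was lost without replicate 1 of E10.5 (adjusted p = 0.0511), replicate 2 of E10.5 (0.0598) or replicate 2 of E11.5 (0.0586). Pkm yields the M1 and M2 isoforms by splicing, which counts per gene do not separate.

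Ldha, the subunit that favours lactate production (chr7:46841475-46855627, plus strand), fell early and was higher again at E14.5. Its level was 1754, 2133 and 1524 CPM at E10.5 and 903, 861 and 1022 at E11.5. It was 519.8, 649 and 449 CPM at E12.5 and 691, 761 and 674 at E14.5, with no overlap between neighbouring stages. The falls were to 0.515 times (log2 fold change -0.96, SE 0.15, edgeR adjusted p = 0.000419) and 0.581 times (log2 fold change -0.78, SE 0.15, edgeR adjusted p = 0.00091). Over the whole course the level dropped to 0.393 times (log2 fold change -1.35, SE 0.15, edgeR adjusted p = 2.70e-06).

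The late rise of Ldha was 1.31-fold and close to the threshold (log2 fold change 0.39, SE 0.15, edgeR adjusted p = 0.041). It passed with replicate 2 of E10.5, replicate 3 of E10.5 or replicate 2 of E12.5 left out, and with each of the other 9 libraries left out in turn it did not, at adjusted p-values from 0.0502 (without replicate 3 of E14.5) to 0.129 (without replicate 2 of E14.5). Without replicate 3 of E12.5, the lowest library, the log2 fold change was 0.30, adjusted p = 0.106. In a fit of E12.5 and E14.5 alone it was 0.40, adjusted p = 0.0538.

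**Figure D2:**
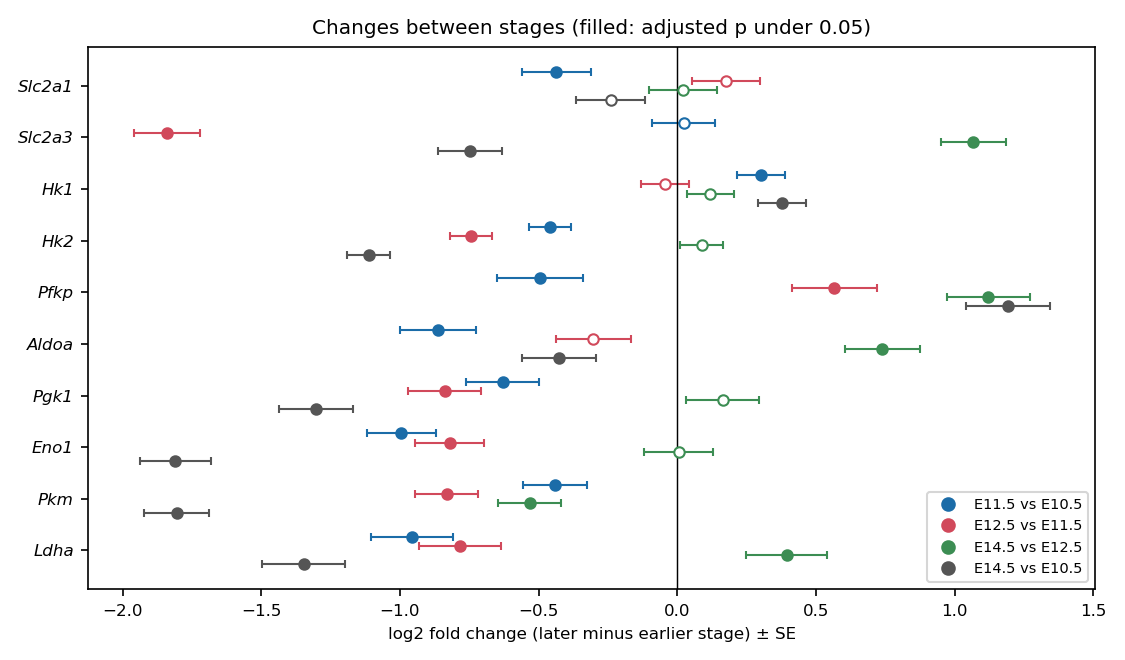
Log2 fold change (later minus earlier stage, horizontal axis) ± SE of each of the 10 genes from the edgeR fit, in 4 comparisons marked by colour. Filled points passed an adjusted p of 0.05: Hk1 and Pfkp lie to the right over the whole course (grey), 7 genes lie to the left, and Slc2a1 is open.

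Sequence before the start site is shown for 5 members, 4 that were lower at E11.5 and E14.5 than at E10.5 (Hk2, Aldoa, Pgk1 and Ldha) and Pfkp, which was higher at E14.5. The windows come from RefSeq on GRCm38.p6, run from 250 to 11 bases before an annotated start and are written 5′ to 3′ on the gene's strand. Capitals mark ACGTG or GCGTG on either strand, the core of the hypoxia response element that HIF1 binds, so that a capital stretch may read CACGT or CACGC. The windows are chr6:82774465-82774704 (minus) for Hk2, chr13:6648782-6649021 (minus) for Pfkp and chr7:126799265-126799504 (minus) for Aldoa. For Pgk1 the window is chrX:106186850-106187089 (plus) and for Ldha chr7:46845554-46845793 (plus).
Hk2: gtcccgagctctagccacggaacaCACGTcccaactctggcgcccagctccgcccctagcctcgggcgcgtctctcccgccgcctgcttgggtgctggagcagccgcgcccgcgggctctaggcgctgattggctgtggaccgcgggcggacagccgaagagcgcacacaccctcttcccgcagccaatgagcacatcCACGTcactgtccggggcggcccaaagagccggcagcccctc
Pfkp: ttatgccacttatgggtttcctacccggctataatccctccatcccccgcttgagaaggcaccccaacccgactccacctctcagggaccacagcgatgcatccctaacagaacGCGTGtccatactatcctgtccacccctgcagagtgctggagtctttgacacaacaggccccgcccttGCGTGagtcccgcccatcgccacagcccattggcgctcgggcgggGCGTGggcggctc
Aldoa: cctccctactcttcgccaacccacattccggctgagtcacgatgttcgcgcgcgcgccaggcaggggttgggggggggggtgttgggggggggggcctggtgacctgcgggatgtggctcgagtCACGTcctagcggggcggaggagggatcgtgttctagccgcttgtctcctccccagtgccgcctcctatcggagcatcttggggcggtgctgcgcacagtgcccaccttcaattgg
Pgk1: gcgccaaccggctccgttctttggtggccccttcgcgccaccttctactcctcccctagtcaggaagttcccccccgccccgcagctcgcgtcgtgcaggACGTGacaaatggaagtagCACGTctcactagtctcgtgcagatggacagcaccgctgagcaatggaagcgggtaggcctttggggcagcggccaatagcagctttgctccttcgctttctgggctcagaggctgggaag
Ldha: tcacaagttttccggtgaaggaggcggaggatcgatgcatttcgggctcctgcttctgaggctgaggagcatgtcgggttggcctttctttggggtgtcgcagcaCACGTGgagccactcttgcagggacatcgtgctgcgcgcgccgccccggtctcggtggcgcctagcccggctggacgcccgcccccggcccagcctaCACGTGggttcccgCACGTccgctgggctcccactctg
Ldha holds 5 matches in its printed window, where CACGTG counts on both strands and is the E-box read by Myc proteins. Hk2 and Pgk1 hold 2 each, Pfkp 3 and Aldoa 1. Aldoa and Ldha have further windows that are not printed. Over the same stretch, 1 of these for Aldoa held no match and that of Ldha held 1. Eno1 and Pkm were also lower at E11.5 and E14.5 than at E10.5 and are not printed, and 1 window of Pkm held no match.

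Windows were found for 9 of the 10 members. From 250 bases before to 50 after a start, all 9 had ACGTG or GCGTG in at least 1 of their windows, as did 46.7% of the 27025 genes with a window. By window, 13 of the members' 16 held the core, against 43.8% of 32851. Both cores contain the pair CG, and the members' windows held a median of 23 such pairs against 7 in all windows. ACGTG alone was found in 7 of 9 members and 21.8% of genes, and CACGTG in 1 of 9, Ldha, and 8.09% of genes.

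Isoenzyme balance was read from CPM per kilobase of merged exons, with the longest transcript as a second length. Levels of different genes were compared only per length, and any reads lost to copies are missing from them. Slc2a3 made up 39.6% ± 2.56 (SD, n = 3) of the summed level of Slc2a1 and Slc2a3 at E10.5, 47.5% ± 1.07 at E11.5, 18.5% ± 2.705 at E12.5 and 31.5% ± 0.93 at E14.5. The E12.5 libraries were lowest and did not overlap with any other stage. Hk2 made up 73.9% ± 0.33 of both hexokinases at E10.5, 62.6% ± 1.72 at E11.5, 50.9% ± 1.39 at E12.5 and 50.3% ± 2.08 at E14.5. With the longest transcript as the length these shares were 60.6%, 47.6%, 36.0% and 35.5%. The downward course was the same on both lengths, but which hexokinase was the more abundant at the later stages depended on the length used.

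Among phosphofructokinases, the liver-type gene Pfkl held 71.5% ± 0.66 at E10.5 and 49.3% ± 1.36 at E14.5, and the muscle-type gene Pfkm 27.4% ± 0.343 and 47.0% ± 1.20. Pfkp stayed the smallest part, at 1.06% ± 0.317 and 3.69% ± 0.605. Aldoa made up 99.6% ± 0.102 of Aldoa and Aldoc at E10.5 and 97.9% ± 0.198 at E14.5. Eno1 made up 90.7% ± 0.441 of the enolases at E10.5, 95.0% ± 0.175 at E11.5 and 85.3% ± 0.62 at E14.5, the rest being mostly the muscle enolase Eno3. The share of Ldha over Ldha and Ldhb, the heart-type subunit, was 74.8% ± 1.45 at E10.5, 63.9% ± 1.02 at E11.5, 53.03% ± 4.04 at E12.5 and 81.9% ± 0.553 at E14.5. It was highest at E14.5, where no library overlapped another stage. Ldhb was then at 74.2 ± 3.85 CPM against 227 ± 45.3 CPM at E12.5 (log2 fold change -1.61, SE 0.13, edgeR adjusted p = 1.10e-06). On the longest transcript, Pfkl held 79.3% at E10.5 and 59.4% at E14.5, and Pfkm 19.7% and 36.8%. On that length Eno1 made up 95.9% at E10.5, 97.8% at E11.5 and 93.1% at E14.5. Ldha then made up 81.8%, 72.8%, 63.1% and 87.3% in order of stage.

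**Figure D3:**
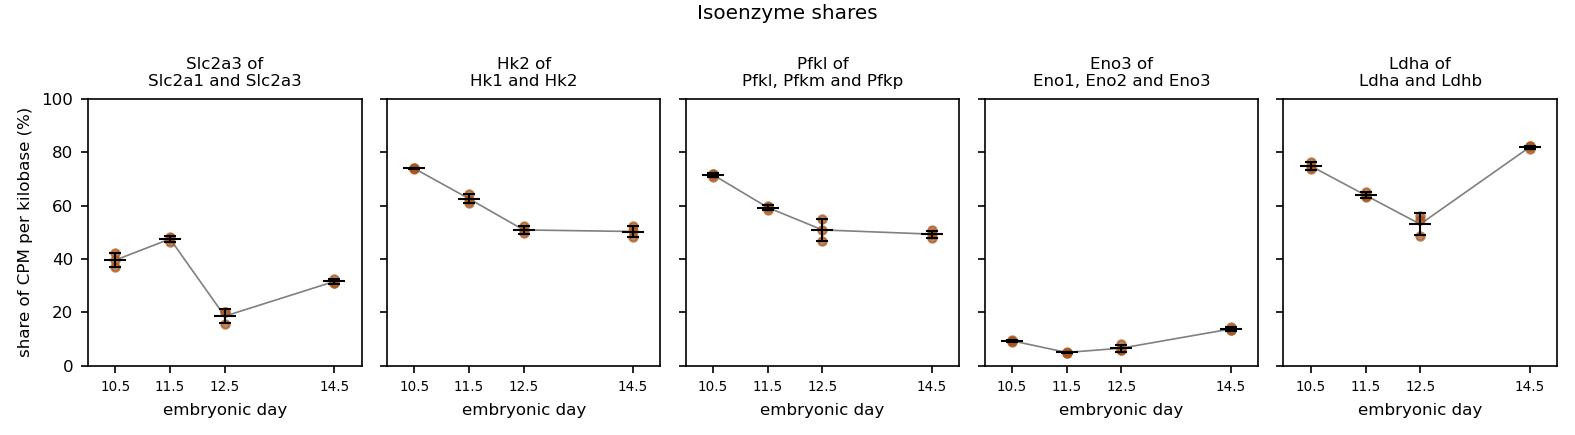
Share (%) of the summed CPM per kilobase of merged exons held by 1 gene of each isoenzyme set, by embryonic day. Points are libraries and black marks the mean ± SD of 3: the share of Hk2 ran from 73.9% at E10.5 to 50.3% at E14.5, and that of Ldha from 53.03% at E12.5 to 81.9% at E14.5.

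Per kilobase of merged exons at E10.5, Ldha (545 ± 92.9 CPM per kb), Eno1 (519 ± 62.4), Pkm (485 ± 70.2) and Pgk1 (411 ± 73.1) were the most abundant members, and their ranges of mean ± SD overlapped. Aldoa followed at 166 ± 10.3, then Slc2a1 at 29.5 ± 1.59, Slc2a3 at 19.4 ± 2.63, Hk2 at 14.7 ± 0.733, Hk1 at 5.19 ± 0.186 and Pfkp at 0.695 ± 0.144. At E14.5 Ldha was highest at 214 ± 14.0, beyond the spread of Pgk1 at 166 ± 15.8. Eno1 stood at 148 ± 7.41 and Pkm at 139 ± 7.97, and the range of mean ± SD of Eno1 overlapped with those of Pgk1 and Pkm. Aldoa stood at 124 ± 5.85. On the longest transcript Eno1 led at E10.5 with 1378 ± 166, and at E14.5 Eno1 (393 ± 19.7) and Ldha (391 ± 25.5) did not differ beyond their spread, so the order at the top depended on the length used. On either length and at each stage, the means of Aldoa, Pgk1, Eno1, Pkm and Ldha lay above those of both transporters and both hexokinases.

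Of the other glycolytic enzymes, 15 of 16 were tested, and over the whole course 9 fell and 4 rose, beside 33.8% and 36.6% of all genes. Their median log2 fold change was -0.63, against 0.06 for all genes. From E10.5 to E11.5, 1 rose and 5 fell (all genes, 12.2% and 12.9%), with a median of -0.27. From E11.5 to E12.5, 4 rose and 6 fell (all genes, 27.1% and 22.2%), with a median of -0.16. Gapdh, which makes 1,3-bisphosphoglycerate, stood at 3924 ± 465 CPM at E10.5, 2975 ± 215 at E11.5, 1877 ± 366 at E12.5 and 1391 ± 108 at E14.5 (log2 fold change -1.50, SE 0.15, edgeR adjusted p = 9.40e-07 over the whole course). The mutase Pgam1 fell from 281 ± 20.9 to 129 ± 3.48 CPM (log2 fold change -1.12, SE 0.09, edgeR adjusted p = 8.89e-08). Gpi1, the glucose 6-phosphate isomerase, and Tpi1, the triose phosphate isomerase, changed less, by -0.44 (SE 0.09, adjusted p = 0.000867) and -0.63 (SE 0.15, adjusted p = 0.00152). With the share outside genes as a covariate neither passed (Gpi1 -0.34, adjusted p = 0.121 and Tpi1 -0.14, adjusted p = 0.638).

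The 4 enzymes that rose over the whole course had low counts. Eno2, the neuronal enolase, stood at 0.798 ± 0.093 CPM at E10.5 and 7.73 ± 0.798 at E14.5 (log2 fold change 3.27, SE 0.21, edgeR adjusted p = 2.08e-08), the muscle mutase Pgam2 at 2.55 ± 0.775 and 13.9 ± 1.39 (log2 fold change 2.44, SE 0.20, edgeR adjusted p = 2.03e-07), and the brain aldolase Aldoc at 2.13 ± 0.444 and 8.56 ± 0.787 (log2 fold change 2.01, SE 0.29, edgeR adjusted p = 3.23e-05). The hexokinase Hk3, at 2.89 ± 0.478 CPM at E14.5, was the other. Pklr, the pyruvate kinase of liver and red cells, dropped from 9.93 ± 4.35 to 0.328 ± 0.196 CPM (log2 fold change -4.90, SE 0.41, edgeR adjusted p = 1.92e-07). Summed erythroid markers lay between 3659 and 4199, 5894 and 7430, 3018 and 4067, and 1457 and 2987 CPM in order of stage, and their part in the fall of Pklr was not tested.

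**Figure D4:**
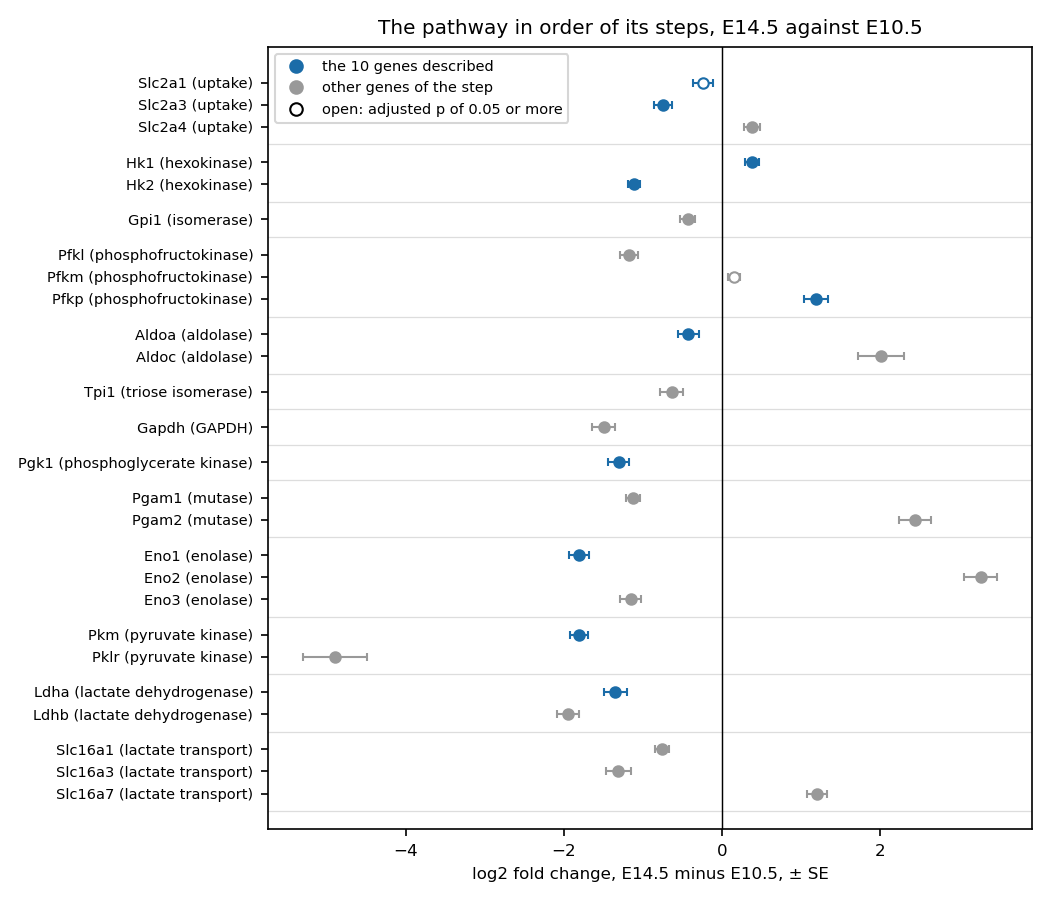
Log2 fold change ± SE (horizontal axis, E14.5 minus E10.5) of transporters and enzymes in the order of the pathway, from uptake at the top to lactate transport at the bottom. Blue marks the 10 genes described, grey other genes of the same step and open points those that did not pass: Gapdh, Pgk1, Pgam1, Eno1, Pkm and Ldha lie to the left, and Eno2, Pgam2 and Aldoc to the right.

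Lactate leaves and enters cells through monocarboxylate transporters (MCT). Of 6 lactate transport genes, 4 fell and none rose from E10.5 to E11.5, where 12.9% of all genes fell. From E11.5 to E12.5, 2 rose and 3 fell (all genes, 27.1% and 22.2%), and from E12.5 to E14.5, 4 rose and none fell, where 23.0% of all genes rose. Over the whole course 2 rose and 3 fell (all genes, 36.6% and 33.8%). Slc16a3 encodes MCT4, the exporter of highly glycolytic cells. It stood at 101, 86.6 and 93.8 CPM at E10.5, 46.0, 36.8 and 47.3 at E11.5, 15.7, 25.9 and 18.4 at E12.5 and 38.9, 41.0 and 33.3 at E14.5. It fell in both early steps (-1.11, SE 0.16, adjusted p = 0.000204, and -1.12, SE 0.16, adjusted p = 0.000145) and rose in the last (log2 fold change 0.92, SE 0.16, edgeR adjusted p = 0.000447). Slc16a1, which encodes MCT1, had the same 3 calls, with means of 106, 64.5, 40.3 and 62.6 CPM. Slc16a7, which encodes MCT2, rose over the whole course (log2 fold change 1.20, SE 0.13, edgeR adjusted p = 1.80e-06), and Bsg, the chaperone of MCT1 and MCT4, did not pass in any comparison, at 309 ± 18.4 CPM at E10.5 and 298 ± 4.90 at E14.5.

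The pentose phosphate pathway, which branches from glucose 6-phosphate, had 7 of 7 genes called lower at E14.5 than at E10.5, where 33.8% of all genes were, with a median log2 fold change of -0.75. Tkt, the transketolase, fell from 320.2 ± 12.4 to 146 ± 4.05 CPM (log2 fold change -1.13, SE 0.08, edgeR adjusted p = 7.62e-08), and Pgd, the 6-phosphogluconate dehydrogenase, from 211 ± 23.0 to 104 ± 1.25 CPM (log2 fold change -1.03, SE 0.09, edgeR adjusted p = 2.41e-07). Taldo1 and Pgls, which also fell, did not pass with the covariate (Taldo1 -0.42, adjusted p = 0.11 and Pgls -0.38, adjusted p = 0.169). Of 13 genes of glycogen metabolism, 7 rose and 2 fell over the whole course, against 36.6% and 33.8% of all genes, and the median log2 fold change was 0.41. Pygm, the muscle phosphorylase, stood at 0.885 ± 0.171 CPM at E10.5 and 16.9 ± 2.37 at E14.5 (log2 fold change 4.25, SE 0.25, edgeR adjusted p = 1.06e-08). The summed muscle markers stood at 36.0 to 42.1 CPM at E10.5 and 2055 to 2574 CPM at E14.5, and their part was not tested.

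Other sugar transporters rose or did not pass, with 6 of 8 tested higher and none lower over the whole course (all genes, 36.6% and 33.8%) and a median log2 fold change of 1.05. The largest change was in the myo-inositol transporter Slc2a13, from 3.26 ± 0.962 to 21.7 ± 0.551 CPM (log2 fold change 2.73, SE 0.18, edgeR adjusted p = 2.11e-08). Slc2a4, the insulin-regulated GLUT4, peaked at E11.5 with 23.8 ± 0.399 CPM (log2 fold change 0.95, SE 0.10, edgeR adjusted p = 1.78e-05 for E11.5 against E10.5) and ended at 16.0 ± 0.547. Among the 5 genes that set fructose 2,6-bisphosphate, the activator of phosphofructokinase, 2 rose and 3 fell in the same comparison, with a median of -0.69. Pfkfb2 rose from 3.73 ± 0.858 CPM at E10.5 to 12.4 ± 0.751 CPM (log2 fold change 1.73, SE 0.17, edgeR adjusted p = 9.40e-07), and Pfkfb3 fell from 40.6 ± 0.734 to 25.2 ± 0.987 (log2 fold change -0.69, SE 0.08, edgeR adjusted p = 3.33e-06). Of 5 gluconeogenic genes tested, 2 rose and 2 fell, with a median of 0.69.

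Where pyruvate enters the mitochondrion, 3 of 13 genes rose and 7 fell over the whole course, beside 36.6% and 33.8% of all genes, with a median log2 fold change of -0.27. Pdk1, a kinase that switches off pyruvate dehydrogenase and a known HIF1 target, was lower at E11.5 and E12.5 than at either end, at 116, 108 and 110.2 CPM at E10.5, 66.9, 67.7 and 72.2 at E11.5, 52.6, 66.8 and 64.7 at E12.5 and 100.4, 102 and 104 at E14.5. Its first step was a fall (log2 fold change -0.69, SE 0.09, edgeR adjusted p = 6.95e-05) and its last a rise (log2 fold change 0.74, SE 0.09, edgeR adjusted p = 1.89e-05). Pdk4 stood at 1.10 ± 0.301 CPM at E10.5 and 6.49 ± 1.14 at E14.5 (log2 fold change 2.55, SE 0.29, edgeR adjusted p = 3.96e-06), and the dehydrogenase subunit Dld fell from 309.7 ± 49.5 to 151 ± 14.2 CPM (log2 fold change -1.03, SE 0.12, edgeR adjusted p = 4.94e-06).

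Of 23 genes of the hypoxia response, 8 rose and 12 fell over the whole course, where 36.6% of all genes rose and 33.8% fell, and their median log2 fold change was -0.23 against 0.06 for all genes. Hif1a, which encodes the regulated subunit of HIF1, fell from 146 ± 2.80 to 117 ± 4.12 CPM (log2 fold change -0.32, SE 0.07, edgeR adjusted p = 0.00107), a change of 0.01 with library totals alone. Ndrg1 went up from 3.24 ± 0.923 CPM at E10.5 to 22.6 ± 1.95 CPM (log2 fold change 2.80, SE 0.20, edgeR adjusted p = 4.86e-08) and Vegfa, the vascular growth factor, from 44.5 ± 9.15 to 85.0 ± 4.11 (log2 fold change 0.93, SE 0.12, edgeR adjusted p = 1.20e-05). The mitophagy gene Bnip3 fell from 36.1 ± 3.27 to 11.1 ± 1.13 CPM (log2 fold change -1.70, SE 0.16, edgeR adjusted p = 5.38e-07) and the cytokine gene Mif from 673 ± 87.3 to 158 ± 14.7 (log2 fold change -2.09, SE 0.17, edgeR adjusted p = 1.37e-07).

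Among 11 regulators of glucose use, 6 fell and 3 rose over the whole course (all genes, 33.8% and 36.6%), with a median log2 fold change of -0.22. Mycn, the Myc family member of embryonic progenitors, stood at 139, 137 and 132 CPM at E10.5, 79.9, 68.4 and 81.1 at E11.5, 37.6, 30.7 and 34.6 at E12.5 and 15.7, 18.5 and 16.5 at E14.5, falling in each step without overlap (log2 fold change -3.01, SE 0.10, edgeR adjusted p = 1.31e-10 over the whole course). Lin28b, an RNA-binding protein of early embryos that blocks let-7 maturation, dropped from 131 ± 10.8 to 2.80 ± 0.58 CPM (log2 fold change -5.55, SE 0.20, edgeR adjusted p = 1.78e-10), and Lin28a from 56.6 ± 12.1 to 0.146 ± 0.0611 CPM. Myc fell at E11.5 (log2 fold change -0.97, SE 0.11, edgeR adjusted p = 4.50e-05), rose at E12.5 (log2 fold change 0.76, SE 0.11, edgeR adjusted p = 0.00019) and did not pass over the whole course (0.17, adjusted p = 0.193). Txnip, an inhibitor of glucose uptake whose transcription follows glucose, rose from 33.2 ± 4.70 CPM at E10.5 to 104 ± 1.14 CPM (log2 fold change 1.64, SE 0.18, edgeR adjusted p = 2.63e-06).

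As a description over the 12 libraries, 3 of each stage, Pearson's r of log2 CPM was 0.98 for Pgk1 and Eno1, 0.98 for Pgk1 and Ldha, 0.97 for Eno1 and Ldha and 0.96 for Hk2 and Eno1. Pkm correlated with Eno1 at 0.93 and with Ldha at 0.82, Aldoa with Ldha at 0.83 and with Pkm at 0.38, and Slc2a1 with Slc2a3 at 0.15. Hk1 had negative values with 8 of the 9 others, between -0.77 with Eno1 and -0.31 with Slc2a3, and 0.37 with Pfkp.

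Outside the pathway lists, 11287 genes of at least 5 CPM were searched for the most similar course over the 12 libraries. Those nearest to Eno1 were Atic (r = 0.9976), an enzyme of purine synthesis, and Nek2 (0.9915), a mitotic kinase. Nearest to Pkm were Fbl (0.9968), which methylates ribosomal RNA, and the chaperone adaptor Stip1 (0.996). Hk2 was nearest to Pmpca (0.9924), a mitochondrial peptidase subunit, and to Gart (0.9915), also of purine synthesis. Pgk1 was nearest to Ino80c (0.9876) and Ldha to AU020206 (0.9736), with the transferrin receptor Tfrc at 0.972.

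Of the remaining members, Slc2a3 was nearest to the semaphorin receptor subunit Plxna2 (0.9512), Pfkp to the integrin Itga1 (0.9848) and to Ptprc (0.9837), which marks white blood cells, and Aldoa to the kinase Map2k1 (0.9421). Hk1 was nearest to the fatty acid transporter Slc27a4 (0.9696). For Slc2a1 the nearest, Marveld2, reached 0.9163, the lowest best match of the 10.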

How the data were processed

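Poly(A) RNA of 12 libraries was measured. Per the labels' protocols the NEBNext Ultra kit was used; it leaves the strand of a read unmarked. The authors' deposited files give raw read counts, as whole numbers, for 53801 Ensembl genes. The mm10 build and the tools HTSeq 0.12.4, STAR 2.7.3a and FastQC are listed, per the submitters' processing notes, and the sources used here do not give the annotation release or the strand setting. The last 5 entries of each file, alignments not counted for a gene (14.3% to 18.6% of the total), entered neither library sizes nor tests. Symbols, coordinates and lengths came from GENCODE for the same assembly, in which 53706 identifiers matched and 95 did not.

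Counts were filtered with filterByExpr (minimum count 10), scaled by TMM and fitted in edgeR 4.0.16 (R 4.3.3) by quasi-likelihood with 1 mean per stage over all 12 libraries (8 residual degrees of freedom), and all adjusted p-values are Benjamini-Hochberg over 18365 genes unless a setting names another tool. Groups came from the age in the labels. No library pair agreed within sampling noise. The fit was checked on simulated counts. Log2 CPM for correlations used a prior count of 2. Reads carry no molecular identifiers, so precision covers counting and library spread only.

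The members and lists were chosen with earlier results of these data known. Named are the 10 members, Gapdh, Ldhb, Hif1a, Gpi1, Tpi1 and Pgam1, up to 4 genes per list with the largest called change from E10.5 to E14.5 and a mean of at least 5 CPM, and 3 genes of like course per member, and not all of these appear. Pfkl, Pfkm, Hk3, Eno3, Pdk1, Myc, Vegfa, Bsg, Pitrm1 and the 4 tissue markers were named outside that rule, after their values were seen. Alternatives were other scaling, filters, DESeq2 1.42.0, limma-voom (limma 3.58.1), a replicate block, fits of only the stages compared, a fit without globin and mitochondrial genes, the outside-gene share as a covariate, and each library left out.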

Additional observations from a re-analysis of the deposited data

How the results depend on the processing

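Each step of 3 libraries against 3 limits precision to differences beyond the spread between those libraries. The calls of Hk2, Aldoa, Pgk1, Eno1 and Ldha in the first step, and of Slc2a3, Hk2, Pfkp, Pgk1, Eno1, Pkm and Ldha over the whole course, held under every alternative. Of the single-gene values of members, 377 of 400 under other settings and 441 of 480 with a library left out kept their direction and side of the threshold. From E10.5 to E11.5, leaving out single libraries gave 0 to 1 members higher and 5 to 8 lower, with 5 when replicate 2 of E11.5 was left out. From E11.5 to E12.5, 2 members were higher with library totals alone, the second being Slc2a1. With the share outside genes as a covariate 0 were higher and 2 lower in that step, and 1 was higher over the whole course. Signs turned with library totals alone for Slc2a1 (0.0787), Hif1a (0.0053) and G6pc3 (0.0457) over the whole course and Hk1 from E11.5 to E12.5 (0.1765). They turned with the covariate for Slc2a1 from E12.5 to E14.5 (-0.0147) and for Tpi1 (0.0426) and Taldo1 (0.0046) from E11.5 to E12.5, and with every gene of at least 1 count for Eno1 from E12.5 to E14.5 (-0.0079). With single libraries left out, the log2 fold change from E12.5 to E14.5 ran from -0.0913 to 0.1721 for Slc2a1 and from -0.0444 to 0.1077 for Eno1, and that of Slc2a3 from E10.5 to E11.5 from -0.0355 to 0.1415. The cause was not tested. With the longest transcript, 30 of 36 isoenzyme shares moved by more than their SD. Whether replicate numbers pair libraries across stages was not settled. Deviations of same-numbered libraries correlated at r of -0.1189 to 0.1767, with 4 of 18 pairs over 0.1. Differently numbered ones ran from -0.2278 to 0.2277. All 4 pairs over 0.1 lay among E10.5, E11.5 and E12.5 libraries, where same-numbered r ran from -0.0447 to 0.1767. The replicate block changed no member's call, with 1 higher and 8 lower in the first step.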
